A study of Arabis alpina with 12 samples.

Results

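Among 34220 genes counted in Arabis alpina, a perennial relative of Arabidopsis, 44 were abundant in the wild-type shoot apex, low in wild-type V3 buds and raised in Aatoe2_IL buds towards the apex level. They were chosen on mean CPM (a gene's reads per 1000000 reads counted in genes). The wild-type apex had to hold at least 5 CPM and at least 3 times the wild-type bud level. Aatoe2_IL buds had to hold at least 2 times the wild-type bud level and under 2 times the wild-type apex level, with the lowest Aatoe2_IL bud library above the highest wild-type one. Of 134 genes that met the wild-type conditions, 54 met the others, and 10 of these were left out by name (orthologues of SPL4, SPL5, AGL6, TOE3, CRC, SEOR1, XIP1, DOT5, SUS6 and CNGC4). The authors' lists pair 30 of the 44 with an Arabidopsis orthologue and 18 with a gene symbol. The 9 listed without an orthologue and the 5 in no list could not be checked against the names left out.

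The samples came from wild-type plants of the accession Pajares and from Aatoe2_IL in the same accession. By its name Aatoe2_IL is affected in AaTOE2, which belongs to the APETALA2-like transcription factors. The sources used here do not describe the lesion, and no other such line was studied, so that AaTOE2 and other differences of the line cannot be told apart. All were grown under long days until 8 weeks old and then spent 8 weeks in vernalization (cold) under short days. Shoot apices and V3 buds, a class of axillary buds, were dissected from both genotypes in 3 replicates each.

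APETALA2-like factors of the TOE group are known in Arabidopsis as repressors of flowering and of the change from juvenile to adult growth. Shoot apices and axillary buds are both built by a meristem that forms leaves and a vascular strand. In that strand the phloem carries sugars and signals through sieve elements and companion cells, and the xylem brings water and ions. Several members with a symbol are known from this tissue in Arabidopsis, and others act at the plasma membrane, in the cell wall or in transcription.

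Reads counted in genes ranged from 9411616 to 12309478 per library, so that 1 CPM stood for about 10 reads. In wild-type buds 12 members had fewer than 30 reads over the 3 libraries, and their ratios rest on few reads. The labels do not say that replicates came from separate plants, and p-values then measure only the spread between these samples. The lists of shoot meristem, xylem, root and epidermis markers held no gene with a name, so that the tissue labels were not checked against them. In whole organs, fewer cells of a type and less RNA per cell cannot be told apart.

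In wild-type buds the members stood at a median of 17.9% of their wild-type apex level, and in Aatoe2_IL buds at 51.7%, with a range of 7.38% to 150%. Their Aatoe2_IL bud level was 2.04 to 5.93 times the wild-type bud level, with a median of 2.85, over the 43 members with reads in wild-type buds. The remaining member, Aa_G675730h1, was without counts in wild-type buds (0 reads) and had 14 reads in Aatoe2_IL, which was at least 4.62-fold higher against a floor of 3 counts over the group. These values chose the members and are given as a description without a test. In 23 of the 44 the Aatoe2_IL bud mean reached at least 50% of the wild-type apex mean, and in 4 it exceeded it. The ranges of the Aatoe2_IL bud and wild-type apex libraries overlapped for 12 members, and for the other 32 (72.7%) every bud library lay below every apex library. So it was for 77 (96.25%) of the 80 apex-high genes that did not meet the conditions on Aatoe2_IL buds. The share over all genes was not computed, and both groups of libraries had entered the choice, so that nothing is read from these counts. No Aatoe2_IL bud replicate led throughout: replicate 1 was the highest for 14 members, replicate 2 for 13 and replicate 3 for 17.

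**Figure D1:**
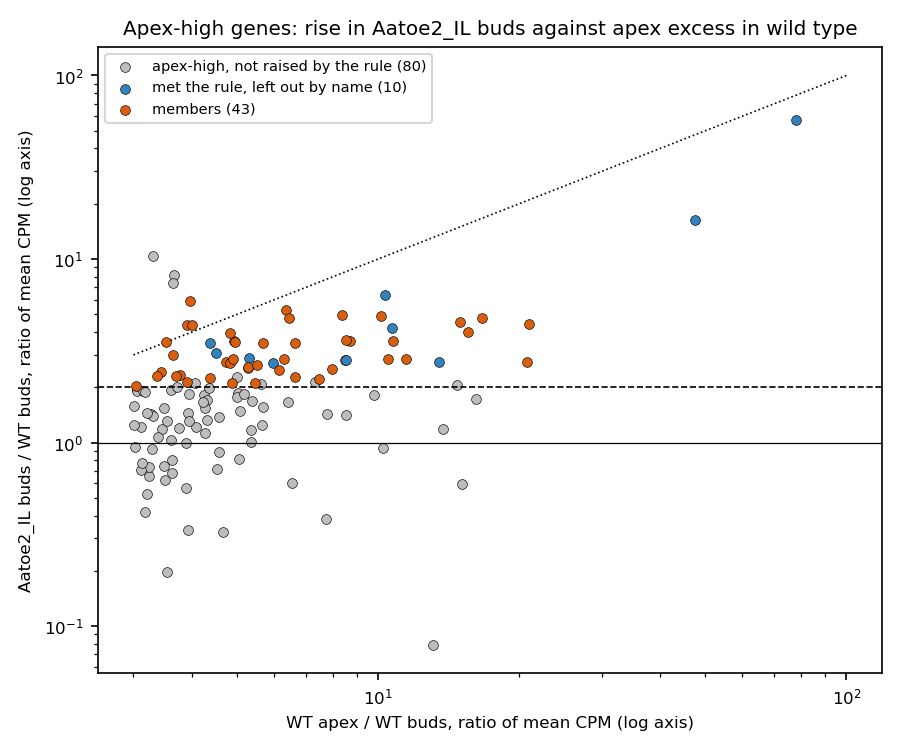
Ratio of mean CPM in Aatoe2_IL buds to wild-type buds (vertical, log axis) against the ratio in wild-type apex to wild-type buds (horizontal, log axis) for apex-high genes. Orange points are 43 members (Aa_G675730h1, with 0 counts in wild-type buds, is not drawn), blue points the 10 genes left out by name and grey points the 80 other apex-high genes; the dashed line marks 2, the solid line 1 and the dotted line equality with the wild-type apex. Members lie between 2.04 and 5.93 on the vertical axis by their choice.

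Genes near the limits of the choice differed little across them. Just inside the limit of 2 for the bud ratio were the orthologues of AT5G42720, with a ratio of 2.04, and AT3G05110, with 2.11. Just outside were EPS1, with 1.997, and an unnamed gene with 1.98. For the apex level, AT3G05180 and FTIP1 were just inside 5 CPM with 5.08 and 5.12, and the 2 nearest outside had 4.97 and 4.86. For the apex to bud ratio in wild type, the nearest inside had 3.03 and 3.37 and the nearest outside 2.995 and 2.93. The number of members was 71 when wild-type bud replicate 1 was left out, and 29 of the 44 were chosen whichever of the 9 libraries used was left out. Those that depended on a library included CNGC3, SKOR, SMXL3, FTIP1 and FLS2.

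The first members by role act in phloem and xylem transport. SEOA (Aa_G451660h1, also called SEOR2) encodes a protein of the filaments inside sieve elements. It had 9.84, 7.06 and 3.85 CPM in wild-type buds and 20.6, 12.9 and 18.3 CPM in Aatoe2_IL buds. Wild-type apices held 46.9, 39.5 and 40.9 CPM and Aatoe2_IL apices 28.2, 35.5 and 19.8 CPM. The 4 groups were thus ordered from wild-type buds over Aatoe2_IL buds and Aatoe2_IL apices to wild-type apices, and the libraries of the middle groups overlapped. KT2/3 (Aa_G380870h1), better known as AKT2, encodes a potassium channel of the phloem. Its level was 2.198, 0.843 and 1.48 CPM in wild-type buds and 5.63, 6.14 and 8.03 CPM in Aatoe2_IL buds. Wild-type apices held 5.85, 6.40 and 5.82 CPM, and those of Aatoe2_IL 3.86, 5.47 and 4.56 CPM. AKT2 was the only member whose Aatoe2_IL bud libraries all lay above the Aatoe2_IL apex libraries.

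SKOR (Aa_G250300h1) encodes a potassium channel that releases potassium into the xylem of Arabidopsis roots. It had 13.2, 13.6 and 13.7 CPM in wild-type buds and 28.6, 38.3 and 19.1 CPM in Aatoe2_IL buds. The Aatoe2_IL bud libraries spread widely, and all of them stayed below the wild-type apex libraries with 66.6, 51.2 and 79.7 CPM. Aatoe2_IL apices held 64.5, 100.2 and 64.4 CPM, within and above the wild-type apex range. SWEET13 (Aa_G708330h1), a sugar exporter gene of the SWEET family, stood at 2.30, 0.632 and 0.296 CPM in wild-type buds and 3.19, 3.69 and 4.33 CPM in Aatoe2_IL buds. Wild-type bud replicate 1 was the highest of its group, as it was for SMXL3, Aa_G219980h1 and other members, among them SEOA and AKT2. The median log2 ratio of the 44 members to their wild-type apex means, with 0.5 CPM added to both, was -2.04 in that library. It was -2.35 and -2.49 in wild-type bud replicates 2 and 3, so that this order is not read as particular to single genes. FTIP1 (Aa_G386480h1) encodes a protein that in Arabidopsis helps to move the flowering signal FT from companion cells into sieve elements. Its level was 0.628, 0.316 and 0.395 CPM in wild-type buds and 1.38, 1.701 and 0.739 CPM in Aatoe2_IL buds. Wild-type apices held 4.39, 5.07 and 5.90 CPM. FTIP1 in Aatoe2_IL buds therefore stood at 24.9% of the wild-type apex mean.

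The next members are signalling and transcription genes. SMXL3 (Aa_G328480h1), known in Arabidopsis as a promoter of phloem formation, had 3.14, 1.47 and 0.592 CPM in wild-type buds and 4.99, 6.24 and 4.44 CPM in Aatoe2_IL buds. Wild-type apices held 6.66, 5.90 and 6.40 CPM and Aatoe2_IL apices 5.70, 5.37 and 5.31 CPM. The Aatoe2_IL bud range thus overlapped the wild-type apex range, whereas every Aatoe2_IL apex library lay below it. BRL2 (Aa_G280910h1), a receptor kinase gene of provascular cells, had means of 1.87 ± 0.589 CPM in wild-type buds and 6.67 ± 1.94 CPM in Aatoe2_IL buds (SD, n = 3). It stood at 9.18 ± 1.42 CPM in wild-type apices and 9.89 ± 2.68 CPM in Aatoe2_IL apices. The leucine zipper factor gene BZIP9 (Aa_G719340h1) went from 3.55 ± 0.790 to 9.58 ± 1.92 CPM between the bud groups, and it stood at 17.1 ± 1.46 CPM in wild-type apices and 16.6 ± 3.504 CPM in those of Aatoe2_IL. For BRL2 and BZIP9 the apex libraries of the genotypes overlapped.

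HAM4 (Aa_G223110h1), a GRAS factor gene of the family that maintains meristems, had 2.62, 1.16 and 2.07 CPM in wild-type buds and 4.78, 3.97 and 6.34 CPM in Aatoe2_IL buds. Wild-type apices held 9.18, 11.2 and 10.5 CPM, and those of Aatoe2_IL 7.72, 8.78 and 8.07 CPM. All Aatoe2_IL libraries of HAM4 thus lay between the wild-type bud and wild-type apex ranges. ZPR2 (Aa_G48790h1) encodes a small leucine zipper protein that inhibits homeodomain factors of the HD-ZIP III class, which set leaf polarity and vascular pattern. Its level was 2.198, 1.26 and 1.58 CPM in wild-type buds and 6.16, 5.29 and 2.85 CPM in Aatoe2_IL buds. Wild-type apices held 18.1, 17.4 and 17.4 CPM. ZPR2 was among the members furthest from the apex level, with 27.0% of the wild-type apex mean in Aatoe2_IL buds.

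Among other membrane proteins, CNGC3 (Aa_G196870h1), a cation channel gene, had the largest bud ratio of the members with a symbol, 5.30. It stood at 0.837, 0.737 and 0.888 CPM in wild-type buds and 4.04, 3.21 and 5.81 CPM in Aatoe2_IL buds. Wild-type apices held 4.47, 6.98 and 4.24 CPM and those of Aatoe2_IL 4.74, 4.03 and 5.79 CPM, so that the 3 other groups overlapped. The zinc transporter gene ZIP1 (Aa_G40090h1) had 2.198, 1.05 and 1.18 CPM in wild-type buds and 6.80, 5.67 and 3.169 CPM in Aatoe2_IL buds. Wild-type apices held 6.50, 8.31 and 7.15 CPM and Aatoe2_IL apices 4.74, 3.305 and 4.37 CPM. For ZIP1 the Aatoe2_IL bud range enclosed that of Aatoe2_IL apices. FLS2 (Aa_G524900h1), the receptor gene for bacterial flagellin, had 2.95 ± 0.385 CPM in wild-type buds and 6.77 ± 2.03 CPM in Aatoe2_IL buds. MVQ4 (Aa_G1010h1), whose product is a target of the defence kinases MPK3 and MPK6, had 2.60 ± 0.653 and 9.11 ± 0.939 CPM.

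The last named members belong to the cell wall and cell surface. XTH15 (Aa_G191150h1), an enzyme gene of xyloglucan remodelling, had 8.37, 12.3 and 16.5 CPM in wild-type buds and 34.3, 35.9 and 35.7 CPM in Aatoe2_IL buds. Its wild-type apices held 55.8, 87.1 and 91.4 CPM and its Aatoe2_IL apices 81.0, 96.1 and 83.5 CPM. The Aatoe2_IL buds of XTH15 were nearly uniform and stood apart from both the wild-type buds and the apices. ATCSLA15 (CSLA15, Aa_G412330h1), of a family of mannan synthases, went from 4.61 ± 0.716 to 9.83 ± 0.736 CPM between the bud groups. The arabinogalactan peptide gene AGP12 (Aa_G463610h1) went from 0.525 ± 0.458 to 2.56 ± 1.41 CPM, and ENODL9 (Aa_G250680h1), an early nodulin-like gene, from 1.75 ± 0.391 to 4.62 ± 0.839 CPM. AGP12 was without counts in wild-type bud replicate 3, and in every other library it had some.

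**Figure D2:**
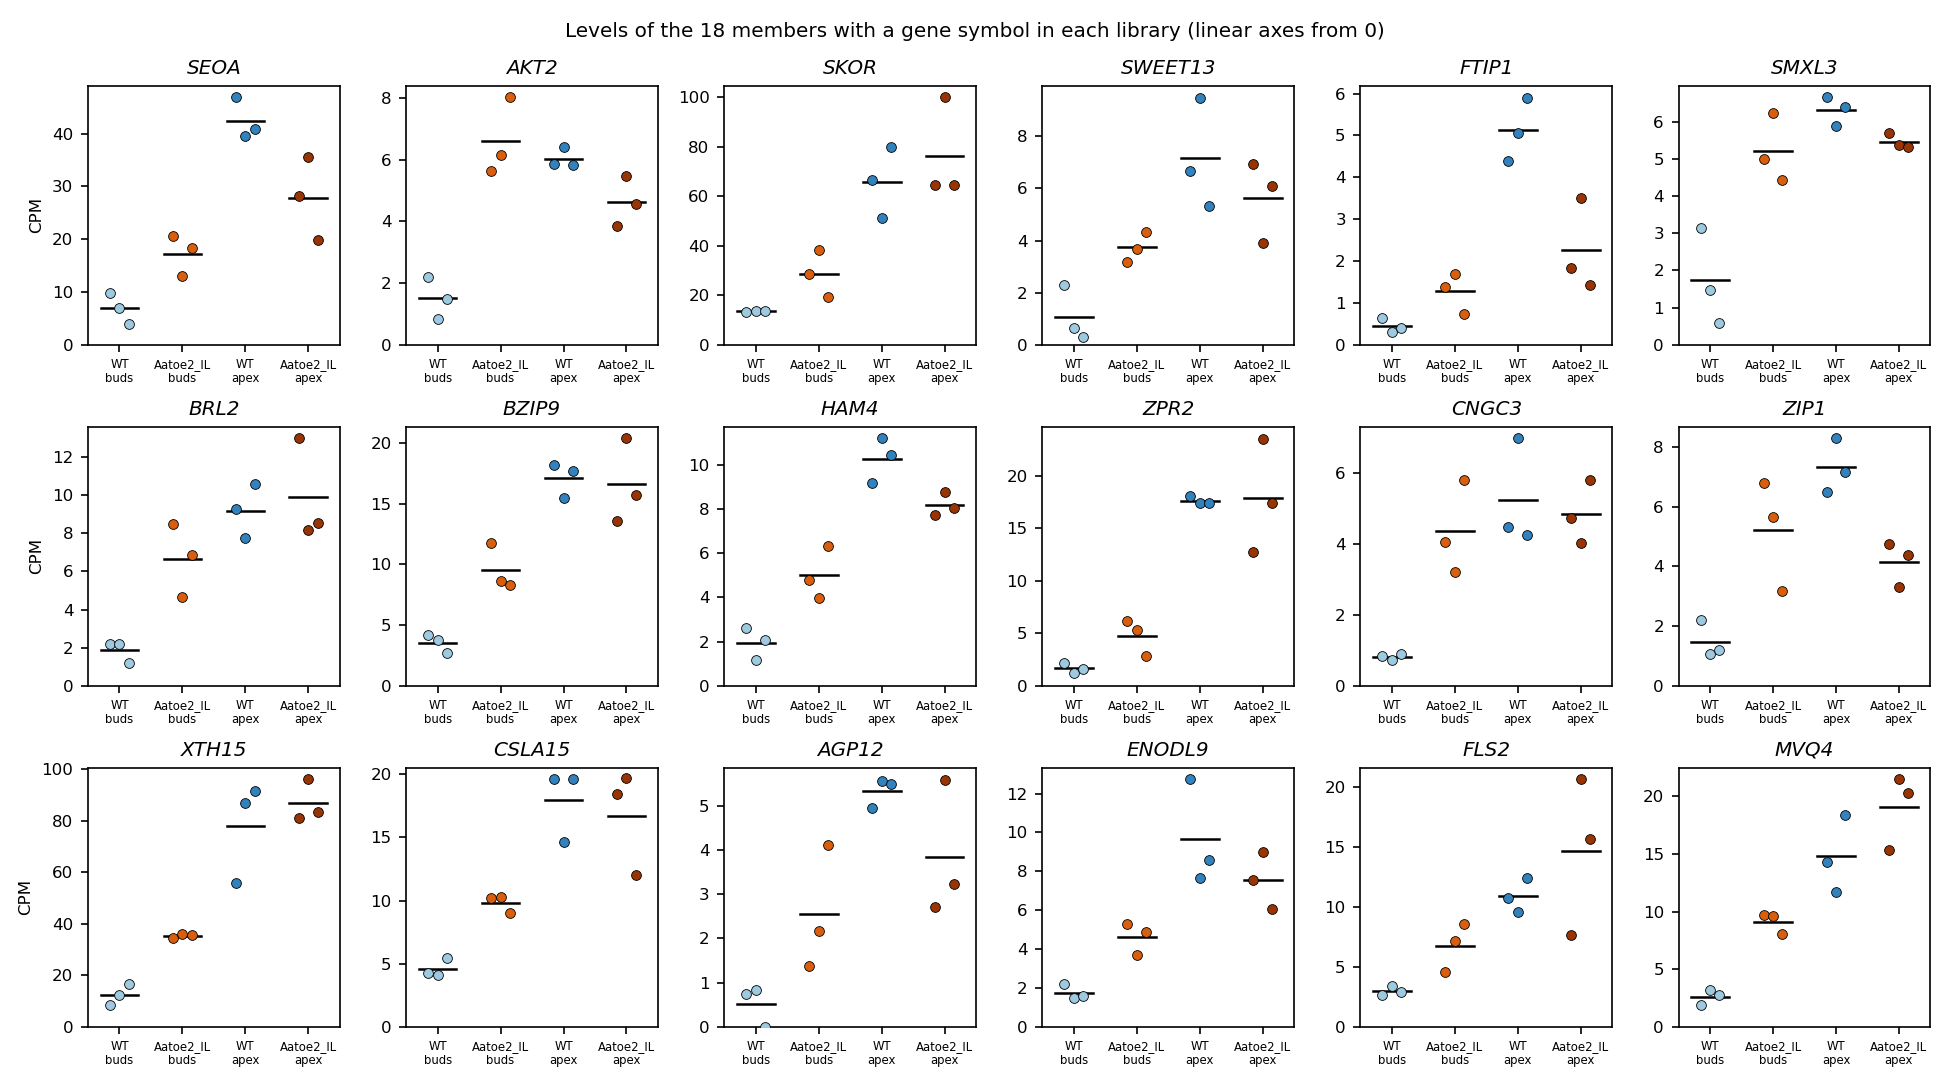
CPM in each library (vertical, linear axes from 0) for the 18 members with a symbol, by group; points are libraries and lines group means. In each panel the 3 Aatoe2_IL bud libraries lie above the 3 wild-type bud libraries, by the choice of members, and for AKT2 they lie between 5.63 and 8.03 CPM, above the Aatoe2_IL apices.

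Of the 26 members without a symbol, 12 had an orthologue named only by its locus. Among the 43 members with reads in wild-type buds, the largest bud ratio, 5.93, was that of Aa_G40300h1, with 1.36, 2.21 and 1.97 CPM in wild-type buds and 3.51, 10.4 and 19.0 CPM in Aatoe2_IL buds. Its Aatoe2_IL bud level thus differed several-fold between replicates. Aa_G219980h1 had the next largest ratio of those without a symbol, 4.96, with 2.41, 0.632 and 0.592 CPM in wild-type buds and 5.31, 6.14 and 6.55 CPM in Aatoe2_IL buds. In the authors' deposited table of genes higher in Aatoe2_IL V3 buds, 38 of the 44 members were listed, against 0.789% of all genes counted. None was in the table of genes lower in those buds, which held 0.444% of all genes. Both tables rest on the same bud libraries as the choice of members, and nothing is read from these shares.

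Markers of other cell types were compared between the groups. Only genes in the authors' lists have names, so that every marker with a name had been listed as changed in buds or apices of these same libraries. Markers that were not listed could not appear, and the values below are no neutral check of the cell types. Of 9 phloem markers 4 had a name, and their summed level ranged from 8.88 to 18.7 CPM in wild-type buds, 24.0 to 36.9 CPM in Aatoe2_IL buds, 78.0 to 85.6 CPM in wild-type apices and 36.3 to 60.0 CPM in Aatoe2_IL apices. In buds this sum was carried by SEOA, itself a member, and SEOR1, which met the same conditions and was left out by name, so that its rise was fixed by the choice. The other 2, SWEET12 and PP2-A1, had bud means of 0.481 and 0.175 CPM in wild type and 0.106 and 0.282 CPM in Aatoe2_IL, and neither passed edgeR's test there (adjusted p = 0.347 and 0.815). The only green leaf marker with a name of 9, CAB1, ranged from 1731 to 1797 CPM in wild-type buds and from 2997 to 4485 CPM in Aatoe2_IL buds. The 4 named flower markers of 12 summed to 36.8 to 41.1 CPM in wild-type buds and 26.7 to 34.3 CPM in Aatoe2_IL buds. Within this sum UFO had means of 32.1 and 8.75 CPM, whereas CRC had 6.14 and 21.5 CPM and SHP2 0.241 and 0.444 CPM, and AP1 was at most 0.209 CPM in any bud library. CRC had also met the conditions and was left out by name. No named marker was at 0 in all libraries of a group. Their part in the levels of the members was not tested.

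The comparison of Aatoe2_IL with wild-type apices did not enter the choice, although its wild-type libraries did, which favoured genes with high wild-type apex values. It shows whether the members also differed in the tissue in which they were chosen as high in wild type. Aa_G233070h1, the single member that passed, rose by a log2 value of 2.31 ± 0.43 (SE, n = 3, adjusted p = 0.0191 by edgeR), from 12.02, 9.30 and 4.57 to 17.2, 47.2 and 65.0 CPM. It has no Arabidopsis name, was picked out after its values were seen, and is listed with Aa_G40300h1 in the authors' deposited table of genes higher in Aatoe2_IL apices, which held 0.365% of all genes, with folds of 5.02 and 4.15. The authors' adjusted p-values there were 1e-30 and 8.83e-21, far below those of edgeR here (0.0191 and 0.0824), and the cause of this gap was not tested. Aa_G233070h1 lost its call without Aatoe2_IL apex replicate 2 or 3 (edgeR adjusted p = 0.0833 and 0.128) or wild-type apex replicate 2 or 3 (0.0898 and 0.0732). It lost it also in a fit of the 6 apex libraries alone (0.0538). The count of 1 of 44, or 2.27%, compares with 1.1% of the 19520 genes tested, 0.292% higher and 0.809% lower in Aatoe2_IL. An unadjusted p under 0.05 by edgeR was found for 11 members. The share of all genes tested with such a p was not computed, and the wild-type apex libraries had entered the choice, so that nothing is read from the 11. By the DESeq2 Wald test 3 members passed, namely Aa_G233070h1, the orthologue of AT1G30160 with a log2 fold change of 0.76 and Aa_G307400h1 with -0.95. The share of all genes that passed by DESeq2 was not computed. The median log2 fold change of the members was -0.01, against -0.00 for all genes tested, and 22 of the 44 were positive.

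The lowest log2 fold change of a member in the apex was that of FTIP1. It had 1.84, 3.51 and 1.42 CPM in Aatoe2_IL apices, below every wild-type library, and its log2 fold change of -1.21 ± 0.34 (SE) did not pass (edgeR adjusted p = 0.0988). In the authors' deposited table of genes lower in Aatoe2_IL apices, which held 0.541% of all genes, FTIP1 was listed with a fold of 0.436 and an adjusted p of 0.0238. ZIP1 had a log2 fold change of -0.84 (SE 0.28) and SEOA one of -0.62 (SE 0.23), and neither passed (edgeR adjusted p = 0.163 and 0.194). Aa_G40300h1, with 8.42, 33.3 and 49.8 CPM in Aatoe2_IL apices against 7.96, 7.73 and 6.32 CPM in wild type, stood at 2.04 (SE 0.53, edgeR adjusted p = 0.0824). It passed without Aatoe2_IL apex replicate 1 (2.49, edgeR adjusted p = 0.00572). SKOR (0.20), XTH15 (0.13), BRL2 (0.10), ZPR2 (0.00), BZIP9 (-0.06), CSLA15 (-0.12) and CNGC3 (-0.13) had log2 fold changes smaller than their SE and changed sign when 1 library was left out.

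Ranges of the apex libraries did not overlap for 15 members, against 20.2% of genes tested, 11 with every Aatoe2_IL library lower (25% of members, against 11% of genes tested) and 4 with every one higher (9.09%, against 9.19%). The 11 lower were FTIP1, ZIP1, SEOA, AKT2, HAM4, SMXL3, the orthologue of AT1G52140 and 4 members without an orthologue. The 4 higher were Aa_G233070h1, Aa_G40300h1, Aa_G457580h1 and the orthologue of AT1G30160. The choice of high wild-type apex values bears on this split in the direction of the lower group.

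**Figure D3:**
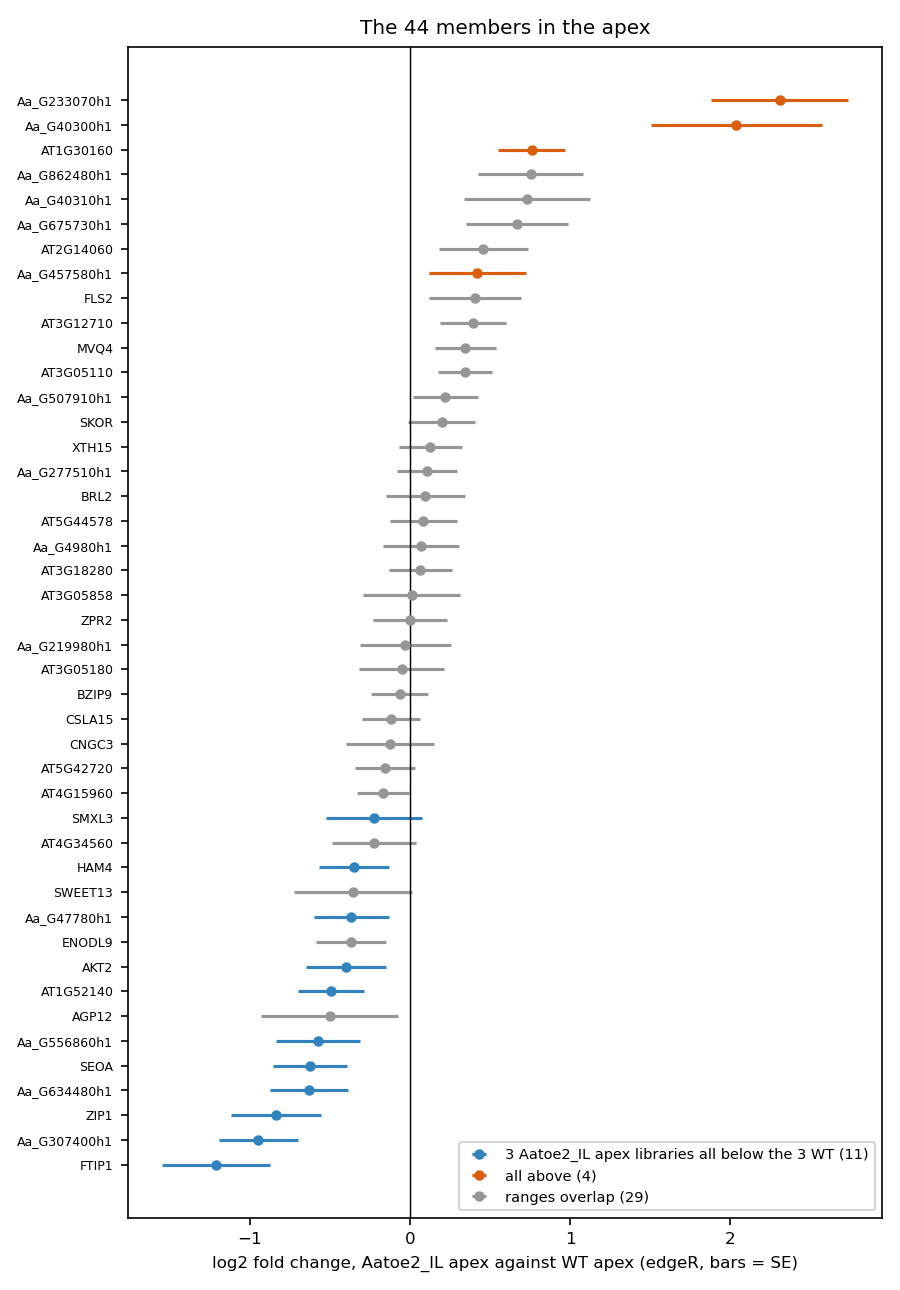
Log2 fold change between Aatoe2_IL and wild-type apices (horizontal) for the 44 members, ordered by size, as edgeR estimates with bars of 1 SE. Blue marks 11 members with every Aatoe2_IL library below every wild-type one, orange 4 with every one above and grey 29 with overlapping ranges; values run from -1.21 for FTIP1 to 2.31 for Aa_G233070h1.

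Buds were then compared with apices within Aatoe2_IL, to see how much of the tissue difference that chose the members in wild type was present in this line. The Aatoe2_IL bud libraries had entered the choice, which favoured high bud values. ZPR2 was lower in buds, at -1.87 ± 0.26 (log2 fold change and SE, adjusted p = 0.000427 by edgeR), as were SKOR at -1.38 ± 0.22 (0.00148), XTH15 at -1.27 ± 0.21 (0.00181) and MVQ4 at -1.03 ± 0.20 (0.00591). CSLA15 (-0.73, edgeR adjusted p = 0.0320) and BZIP9 (-0.76, edgeR adjusted p = 0.0252) passed as well. CSLA15 lost its call without any single Aatoe2_IL bud library or Aatoe2_IL apex replicate 1 or 2, and BZIP9 without replicate 2 or 3 of either tissue. In all 20 of 44 members passed (45.5%), all lower in buds, against 5.67% of genes tested in either direction and 2.5% lower. Since the members were chosen as higher in apex than in buds of wild type, partly on the libraries tested here, nothing is read from that difference in shares. Besides these 6 they were 7 with an orthologue known by locus only and 7 without an orthologue. The strongest by p was the orthologue of AT1G30160, with -2.46 (SE 0.24, edgeR adjusted p = 3.4e-05).

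The other 24 members did not pass. AKT2, at 0.55 ± 0.25 (log2 fold change and SE, edgeR adjusted p = 0.297), and ZIP1, at 0.36 ± 0.29 (edgeR adjusted p = 0.648), were the 2 members with a higher bud mean. CNGC3 (-0.13, SE 0.28) and SMXL3 (-0.03, SE 0.31) lay within 1 SE of 0, which leaves room for differences of that size. FLS2 (-1.07, edgeR adjusted p = 0.0515), ENODL9 (-0.67, edgeR adjusted p = 0.132), SEOA (-0.66, edgeR adjusted p = 0.155) and Aa_G40300h1 (-1.44, edgeR adjusted p = 0.149) passed once the replicate number, which pairs buds and apices of this line, entered as a block (edgeR adjusted p = 0.000518, 0.0482, 0.0297 and 1.51e-06). With the block 26 members passed, all lower in buds, while the share of all genes tested that passed went from 5.67% to 12.2%, and from 2.5% to 5.25% for lower calls. The median log2 fold change over the 44 members was -0.78, against -0.01 for all genes tested. Buds and apices did not overlap for 30 members (23.3% of genes tested), 29 lower in buds (65.9%, against 13.1% of genes tested) and AKT2 higher, as were 10.1% of genes tested. By means, 11 members kept at least a 3-fold apex excess in Aatoe2_IL and 18 at least a 2-fold one. Relative to the apex of its own genotype, the bud level of the members was a median of 56.4% in Aatoe2_IL, from 4.61% to 143%.

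**Figure D4:**
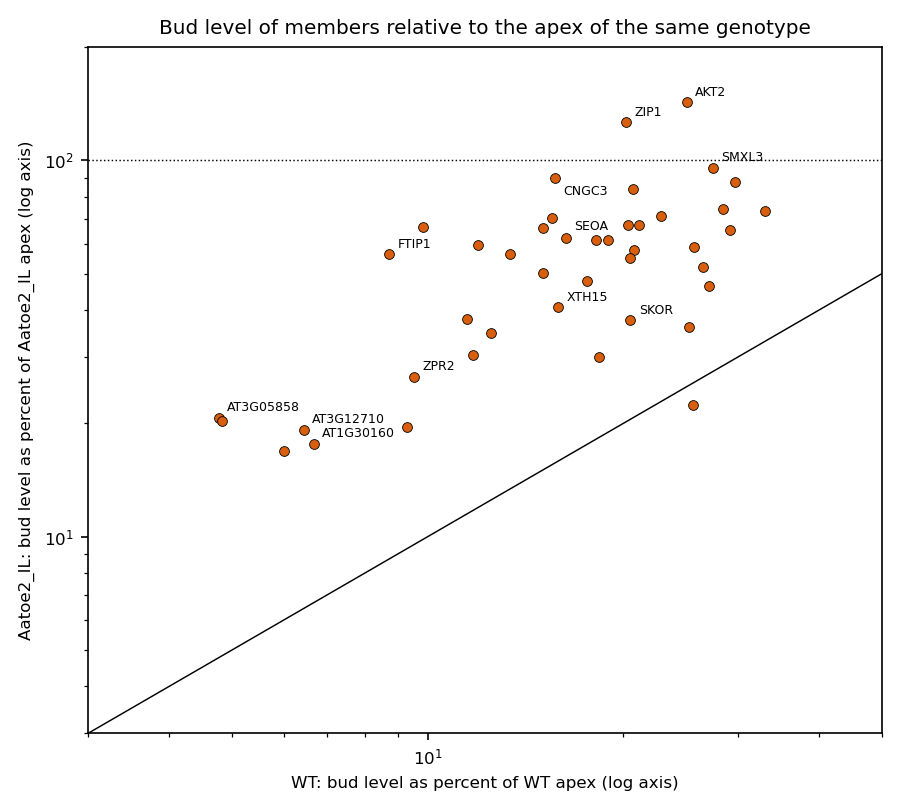
Bud level as a percent of the apex level of the same genotype, in Aatoe2_IL (vertical, log axis) against wild type (horizontal, log axis), from mean CPM of 43 members; the solid line marks equality and the dotted line 100%. Aa_G675730h1, with 0 counts in wild-type buds, is not drawn. AKT2, at 143%, and ZIP1, at 126%, lie above 100%, and Aa_G233070h1, at 22.3% in Aatoe2_IL against 25.6% in wild type, is the single point below the solid line.

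The 80 apex-high genes that did not meet the conditions on Aatoe2_IL buds give the background for these values. Their Aatoe2_IL bud level was a median of 1.36 times the wild-type bud level, with 55 of 80 above it. In 10 of the 80 it was at least 2 times that level, up to 10.4 times, and these genes missed another condition on Aatoe2_IL buds. The 80 are therefore not a set of genes without a rise. In 6 of them Aatoe2_IL buds held at most 50% of the wild-type bud level with no overlap. In the apex 14 of the 80 passed edgeR's test (17.5%), 12 of them lower in Aatoe2_IL, and the median log2 fold change was -0.44. Every Aatoe2_IL apex library was below every wild-type one for 38 of them (47.5%). Between Aatoe2_IL buds and apices 50 of the 80 passed (62.5%), all lower in buds, with a median of -1.32. A difference between these genes and the members was not tested, since the choice separates them by their Aatoe2_IL bud values.

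Of 16 lists of genes for pathways of shoots, with 559 members, 3 lists held any of the 44. They are the vascular list with SEOA, the nitrogen and ion transport list with AKT2 and ZIP1, and the cell wall and cuticle list with XTH15. Only genes in the authors' lists have names, and these lists rest on the same libraries. Neither the counts nor the tests of named genes below are therefore independent evidence of a direction. Of 3 vascular genes with a name, SWEET12 fell in the apex (-3.06, SE 0.61, edgeR adjusted p = 0.0288), and PP2-A1 did not pass (-2.03, SE 0.63). Of 4 ion transport and nitrogen genes, NIA1, a nitrate reductase gene, and ADC1, an arginine decarboxylase gene, rose in Aatoe2_IL buds by 1.53 and 1.79 on the log2 scale (edgeR adjusted p = 0.00758 and 1.06e-05), where 4.95% of genes tested passed and 2.98% were higher. Of 3 cell wall genes, the lipid transfer protein gene LTP4 fell in those buds by 2.41 (edgeR adjusted p = 0.00149), where 1.97% of genes tested were lower, and LTP3 had -2.83 (edgeR adjusted p = 0.133).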

How the data were processed

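The deposited table gives raw counts of reads for each gene as whole numbers. Its 5 last lines count reads not assigned to a gene and were left out of all totals. The line for reads outside genes alone held 13.4% to 21.5% of all reads counted in a library, these lines included. The submitters' processing notes list STAR, HTSeq 0.5.4p1, DESeq and DESeq2 and give no roles. No source used here gives the genome build, annotation or strand setting, and genes that overlap or lie antisense to another are therefore uncertain. Libraries were poly(A), strand-specific and read as single reads of 100 bp, per the labels' protocols.

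The authors' 4 lists (fold over 2, adjusted p-value below 0.05) held group means (a signal, normalized counts), the fold ratio, its log2 and the adjusted p-value, per the file headers. Names were taken from these lists, whose means were within 0.5% of those recomputed with median-of-ratios scaling for 732 of 732 entries. KT2/3 and SEOA were matched to the gene lists by their aliases AKT2 and SEOR2. No sequences were used here.

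CPM were computed from the deposited counts over the summed gene counts. Tests used edgeR 4.0.16 in R 4.3.3 (TMM, default filter on low counts, quasi-likelihood F test) on all 12 libraries as 4 groups with 8 residual degrees of freedom, Benjamini-Hochberg adjusted over 19520 genes, with calls under 0.05. All 44 members passed the filter. SE is the absolute log2 fold change over the square root of F. The procedure was tested on simulated data. DESeq2 1.42.0 was an alternative. Floors cover counting error only.

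The members and lists were chosen with earlier results of these data known. The rule for named members took those with a symbol that were on a gene list, among the 12 with the largest bud ratio, among the 5 highest in the wild-type apex or called, the 2 without a symbol that had the largest bud ratio, and the genes nearest the limits. HAM4, ENODL9, FLS2 and all other genes named by identifier or locus fell outside it and were added after their values were seen. Deviations from the group means of same-numbered libraries correlated by 0.415, 0.320 and 0.239 between Aatoe2_IL buds and apices, so that the number pairs them; with it as a block 26 members passed in place of 20, and 12.2% of all genes tested in place of 5.67%.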

Additional observations from a re-analysis of the deposited data

Results flagged for a closer look

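In 11 members every Aatoe2_IL library lay above every wild-type library in buds, by their choice, and below every wild-type library in the apex. The library ranges thus lay in opposite directions in the tissues. The choice of high wild-type apex values favours the lower apex ranges, so no opposite effect of genotype is read from this. The difference between the tissues was not tested, because the bud contrast chose the members, and none of the 11 passed edgeR's test in the apex. Aa_G307400h1 passed there by the DESeq2 Wald test (adjusted p = 0.0477), for which the share of all genes was not computed. FTIP1 was listed by the authors as lower there, with a fold of 0.436. The edgeR log2 fold changes of the 11 in the apex were -1.21 for FTIP1, -0.84 for ZIP1, -0.62 for SEOA, -0.40 for KT2/3 (AKT2), -0.35 for HAM4 and -0.22 for SMXL3. The orthologue of AT1G52140 (Aa_G219760h1) had -0.49. Without an orthologue, Aa_G307400h1 had -0.95, Aa_G634480h1 -0.63, Aa_G556860h1 -0.57 and Aa_G47780h1 -0.365. Among all genes tested, 11% had every Aatoe2_IL apex library below every wild-type one. Among the 80 apex-high genes that did not meet the conditions on Aatoe2_IL buds, 38 (47.5%) did.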

How the results depend on the processing

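The choice gave 49 and 50 members with TMM or median-of-ratios scaling. It gave 82 and 25 members with an apex minimum of 2 or 10 CPM, 73 with an apex to bud ratio of at least 2, and 22 with a bud ratio of at least 3. Leaving out 1 library gave 44 to 71, the highest without wild-type bud replicate 1.

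In the apex 3 members passed by the DESeq2 Wald test, 2 with no filter on low counts, 0 in a fit of the 6 apex libraries, 0 with the replicate block and 0 to 2 without 1 library. With the block 0.579% of all genes tested passed. Shares of all genes under the other alternatives were not computed, so that these counts are not read against a background. The replicate numbers did not pair the genotypes (correlations of -0.03, -0.29 and 0.09). The cause of these differences was not tested. Log2 fold changes in the apex that changed sign without 1 library ranged from -0.24 to 0.20 for ZPR2 (-0.035 with the block), -0.15 to 0.22 for BRL2, -0.23 to 0.065 for BZIP9, -0.039 to 0.37 for SKOR, -0.25 to 0.065 for ATCSLA15, -0.089 to 0.26 for XTH15, -0.28 to 0.18 for CNGC3 and -0.28 to 0.17 for Aa_G219980h1.

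Between Aatoe2_IL buds and apices 16 to 22 members passed without 1 library, with a median of -0.90 to -0.68, and 17 to 26 under the other alternatives. Among these alternatives the share of all genes was computed only for the block (12.2%), and nothing is read from the counts. SMXL3 ranged from -0.17 to 0.064 and CNGC3 from -0.40 to 0.066 without 1 library. Genes under 1 CPM rest on fewer than about 10 reads in a library.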

Other observations

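Orthologues on Arabidopsis chromosome 3 made up 13 of the 30 members with an orthologue (43.3%). They made up 92 of 445 genes in all the authors' lists (20.7%), 41 of the 179 other genes listed as higher in Aatoe2_IL buds (22.9%) and 19 of the 94 listed as lower there (20.2%). In 4 pairs of members identifiers had numbers within 100 of each other, among them ZIP1 (Aa_G40090h1) with the orthologue of AT3G12710 (Aa_G40120h1), and Aa_G40300h1 with Aa_G40310h1. The 80 other apex-high genes had 2 such pairs. These shares were looked at after the names had been seen and were not tested, and positions in the Arabis alpina genome were not analysed here.

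In 13 of the 44 members replicate 1 was the lowest Aatoe2_IL library in both tissues, against 2 members for replicate 2 and 7 for replicate 3. They included XTH15, AKT2, AGP12, FLS2, Aa_G233070h1 and Aa_G40300h1. The share of all genes with this order was not computed. Over all genes tested, deviations of replicate 1 correlated by 0.415 between Aatoe2_IL buds and apices, so that these counts are not read as a trait of the members. Aa_G233070h1 had 5.74, 11.5 and 11.6 CPM in buds and 17.2, 47.2 and 65.0 CPM in apices of replicates 1, 2 and 3. Aa_G40300h1 had 3.51, 10.4 and 19.0 CPM in buds and 8.42, 33.3 and 49.8 CPM in apices.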
